A study of Mus musculus with 38 samples.

Results

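The regions described here are 353 sites of the mouse genome at which SATB1 peaks were called in thymocytes by both versions of the ChIP-seq assay. They were chosen by the peak calls themselves. A site is a peak of urea SATB1 replicate 2 on chromosomes 1 to 19 or X that shared at least 1 bp with a peak of urea SATB1 replicate 1 and with a peak of standard SATB1 replicate 1 or 2. Of the 38765 urea replicate 2 peaks on these chromosomes, 32930 were shared with urea replicate 1, and 353 of those also had a standard peak, which is 1.07% of the shared urea peaks. Because these calls selected the sites, the urea and standard values below are given as a description, with no test.

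SATB1 is a nuclear protein abundant in thymocytes that folds chromatin and is needed for T cell development. It binds base-unpairing regions (BURs), AT-rich stretches in which 1 strand has mixed A, T and C but no G, and whose strands separate readily. CTCF is a zinc finger protein that marks the borders and anchors of chromatin loops.

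In the urea version crosslinked chromatin was purified by centrifugation through urea before immunoprecipitation, whereas the standard version used sonicated crosslinked chromatin directly. All animals were wild-type C57BL/6 mice with no transgene or treatment, and all thymocyte lists carry the label P13 (postnatal day 13). Urea replicates 1 and 2 were precipitated with 4 and 2 µl of SATB1 antibody 1583D. Their titles carry the same code with different letters, whereas the study calls its replicate experiments independent. Standard replicate 1 used another SATB1 antibody, ab109122, and 15 s of sonication, and its title gives 6 weeks against the P13 of its other label. Standard replicate 2 used antibody 1583D and 150 s of sonication. The 7 other lists, which did not enter the choice of sites, were an in vitro BUR map made with recombinant SATB1 on purified thymocyte DNA, urea SATB1 from brain (2 lists, 5 and 6 weeks) and skin (2 lists, labelled P13; the study's methods give other ages for brain and skin), and urea CTCF from thymocytes (title 6 weeks, other label P13) and from skin (P13). Each list gives per peak a fold enrichment, the ratio that the peak caller gives between the reads at the top of the peak and the number it takes as background there. Whether that background came from an input library is not given in the sources used here. The lists held between 10846 peaks (skin replicate 2) and 238380 peaks (BUR map), carry no read counts, and are not scaled to each other, so the depth behind each value is unknown. Peak lists hold no expression values, so the labelled tissues could not be checked against marker genes.

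The sites were sorted by the lists with a peak there, nearness to a gene start, the CTCF motif or repeated sequence. For each of these kinds 1 example is shown before the values. All windows are plus strand of build NCBIM37 (mm9), and unless stated they cover 60 bases on either side of the urea replicate 2 summit. The motif ATTAAT, which reads the same on both strands and was chosen after the sequences had been seen, is in capitals in the first 3 windows. The first is the most enriched site with a BUR and with brain and skin peaks but no CTCF peak (chr10:31836739-31836858, intergenic, nearest start Nkain2), the second the most enriched site with only BUR and brain peaks (chr8:19883972-19884091, intergenic, nearest start Gm15319), and the third the most enriched site near a gene start that has no BUR and holds the motif in this window (chr2:38782067-38782186, at Nr6a1).
Nkain2 site: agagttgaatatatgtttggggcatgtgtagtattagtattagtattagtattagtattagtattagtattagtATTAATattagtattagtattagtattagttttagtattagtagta
Gm15319 site: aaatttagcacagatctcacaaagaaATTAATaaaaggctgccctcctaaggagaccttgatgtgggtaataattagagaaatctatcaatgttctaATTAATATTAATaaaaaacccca
Nr6a1 site: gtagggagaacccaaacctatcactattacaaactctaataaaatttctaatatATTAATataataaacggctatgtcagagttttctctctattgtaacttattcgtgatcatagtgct
The next window lies at the Heyl site (chr4:122931969-122932088), which was chosen because it has the highest thymocyte CTCF value among the sites with the CTCF core consensus near the urea summit. It is centred on these 12 bases, in capitals and read on the minus strand. The BC005537 window (chr13:24894222-24894341) is the most enriched of the sites with no peak in any other list. The Nanog window (chr6:122647548-122647667) is the most enriched site whose central 50 bases recur elsewhere in the genome. No capitals are used in these last 2. The unit repeated in the Nanog window, ACTAAT, is the opposite-strand reading of ATTAGT, the unit repeated in the Nkain2 window. The ATTAAT in capitals in the Nkain2 window lies within that array.
Heyl site: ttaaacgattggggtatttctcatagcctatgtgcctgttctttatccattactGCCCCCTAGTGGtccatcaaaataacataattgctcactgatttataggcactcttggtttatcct
BC005537 site: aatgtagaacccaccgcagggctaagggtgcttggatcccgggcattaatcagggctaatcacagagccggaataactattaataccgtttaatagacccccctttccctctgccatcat
Nanog site: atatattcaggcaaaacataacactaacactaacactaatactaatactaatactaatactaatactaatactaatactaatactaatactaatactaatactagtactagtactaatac
The last is 1 unit of a 234-base tandem repeat, the Gm10106 site at chr9:3032264-3032497.
Gm10106 site: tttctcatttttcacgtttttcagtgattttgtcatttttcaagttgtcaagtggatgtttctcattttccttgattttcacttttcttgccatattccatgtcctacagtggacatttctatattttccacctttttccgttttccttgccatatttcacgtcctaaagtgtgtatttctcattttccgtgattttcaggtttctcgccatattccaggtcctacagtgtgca

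The sites were shared with many of the other lists. The median site had a peak in 5 of the 7, against a median of 3 for the 32577 shared urea peaks without a standard peak and 0 for the 22421 shared standard peaks without a urea peak. Here a shared standard peak is a standard replicate 2 peak that overlapped standard replicate 1 and no urea peak of either replicate. Of the 353 sites, 59 (16.7%) had a peak in all 7 other lists, whereas 7 of the 32577 other urea peaks and 1 of the 22421 standard peaks did. At the other end, 7 sites (1.98%) had no peak in any other list, against 469 (1.44%) of the other urea peaks and 75.1% of the standard peaks without a urea peak. The median was 5 in each of the 4 pairings of 1 urea list as the base with 1 standard list. The SD over these pairings, used here as the replicate error, also holds the protocol differences between the standard lists.

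**Figure D1:**
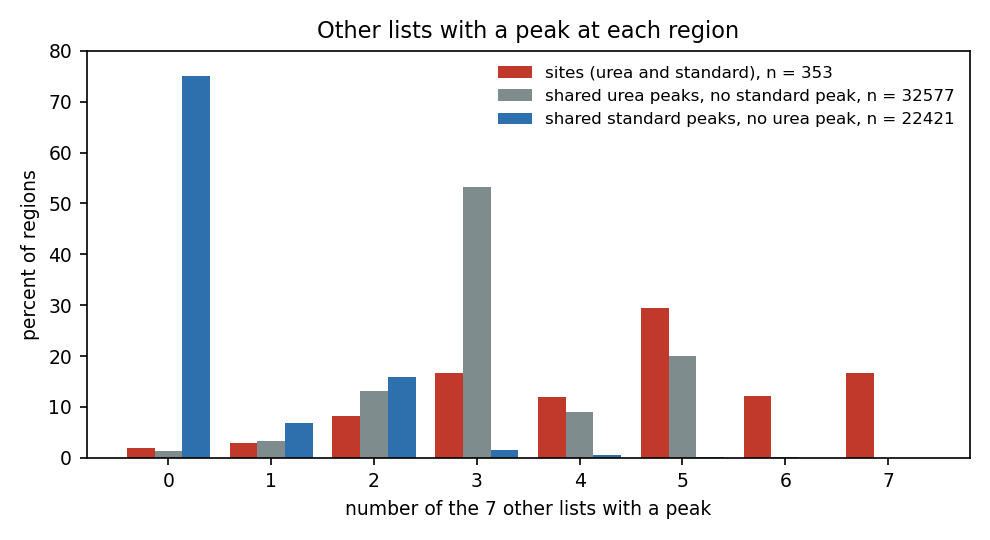
Percent of regions (vertical axis) against the number of the 7 other lists with a peak there (horizontal axis), for the 353 sites, the 32577 shared urea peaks without a standard peak and the 22421 shared standard peaks without a urea peak. The sites peak at 5 lists (29.5%), the other urea peaks at 3 (53.1%) and the standard peaks at 0 (75.1%).

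List by list, BURs and brain SATB1 were somewhat less frequent at the sites than among all shared urea peaks, skin SATB1 was more frequent, and CTCF was far more frequent. A BUR was present at 247 sites, or 70.0% ± 5.69 (SD over the 4 pairings), against 79.9% of all shared urea peaks, and the 4 pairings ran from 66.2% to 76.5%. Brain replicates 1 and 2 had peaks at 306 (86.7%) and 299 (84.7%) sites, against 95.5% and 94.9%. Skin replicates 1 and 2 had peaks at 218 (61.8%) and 216 (61.2%) sites, against 27.7% and 26.9%. Thymocyte CTCF had a peak at 150 sites, or 42.5%, against 0.598%, and skin CTCF at 168 sites (47.6%), against 0.887%. The sites were also longer, with a median of 437 bp against 371 bp for the other shared urea peaks. The part of length in these shares was not tested.

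**Figure D2:**
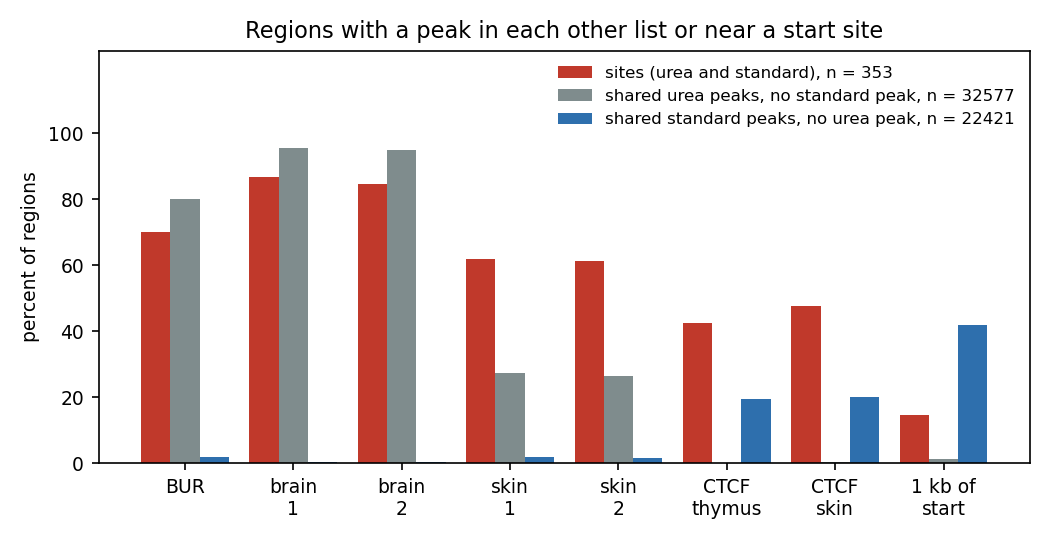
Percent of regions (vertical axis) with a peak in each of the 7 other lists, and within 1 kb of a protein-coding transcript start, for the same 3 sets. The sites stand close to the urea peaks for BURs and brain and above both other sets for skin and CTCF; for start sites they lie between the other sets, at 14.4% against 1.28% and 41.9%.

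The overlap with CTCF was also read from the urea side. Of the 32930 shared urea peaks only 197 had a thymocyte CTCF peak, and 150 of these (76.1%) were sites, whereas 203 of the 32733 without a CTCF peak (0.620%) were. Of the sites chosen with 1 standard list alone, between 49.1% and 53.8% had a thymocyte CTCF peak over the 4 pairings (SD 2.04), against 42.5% of all sites. Among the 164 sites with peaks in both standard lists 69.5% had one. Among the 22421 standard peaks without a urea peak, 4350 (19.4%) had a thymocyte CTCF peak. Each CTCF list used here comes from 1 library, and a further wild-type thymocyte urea CTCF sample of the series was not used.

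CTCF peaks at the sites were at least as enriched as the rest of that list but held the CTCF motif less often. Their median fold enrichment was 9.74, against 7.83 over the whole thymocyte CTCF list. It was 9.52 for the CTCF peaks at standard peaks without a urea peak, close to that at the sites, and 6.42 at the other shared urea peaks. The CTCF core consensus of 12 bases, searched on both strands in the 300 bases around the CTCF summit, was found in 10 of the 150 (6.67%), against 5201 of 20219 (25.7%) of all thymocyte CTCF peaks and 21.3% of the CTCF peaks at standard peaks without a urea peak. At the other shared urea peaks it was found in 9 of 47 CTCF peaks (19.1%). No match says only that these exact letters are not in the window. Around the urea summit the core was present at 3 sites (0.850%), near Llph, Thpo and Heyl, which are named because they are few, and at 0.0368% of the other shared urea peaks. The summits of the CTCF and urea peaks were a median of 64.5 bp apart, and within 50 bp of each other at 70 of the 150 sites. The median was 14 bp at the 53 sites with a peak in all 11 lists and 110 bp at the other 97.

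By the pattern of other lists the sites fell into 7 classes. The largest was the 97 sites with thymocyte CTCF but without a peak in all 11 lists. Their median AT content, the share of A and T over the peak, was 55.6%, 35 of the 97 were under 50%, and 47 had a BUR. The next was 70 sites with BUR, brain and skin peaks and no CTCF peak. These were AT-rich (median 63.7%) and had the highest urea values, with a median fold enrichment of 22.7 in replicate 1 and 26.5 in replicate 2, but standard values of only 5.03 (replicate 1, 45 sites) and 5.74 (replicate 2, 43 sites). The 53 sites in all 11 lists had median urea values of 13.7 and 13.3 and the highest median standard values, 14.0 and 12.5. A further 41 sites had BUR and brain peaks only (median AT 68.2%), 24 had brain peaks only (57.5%), and 7 had none (55.4%). The other 61 sites had other combinations.

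**Figure D3:**
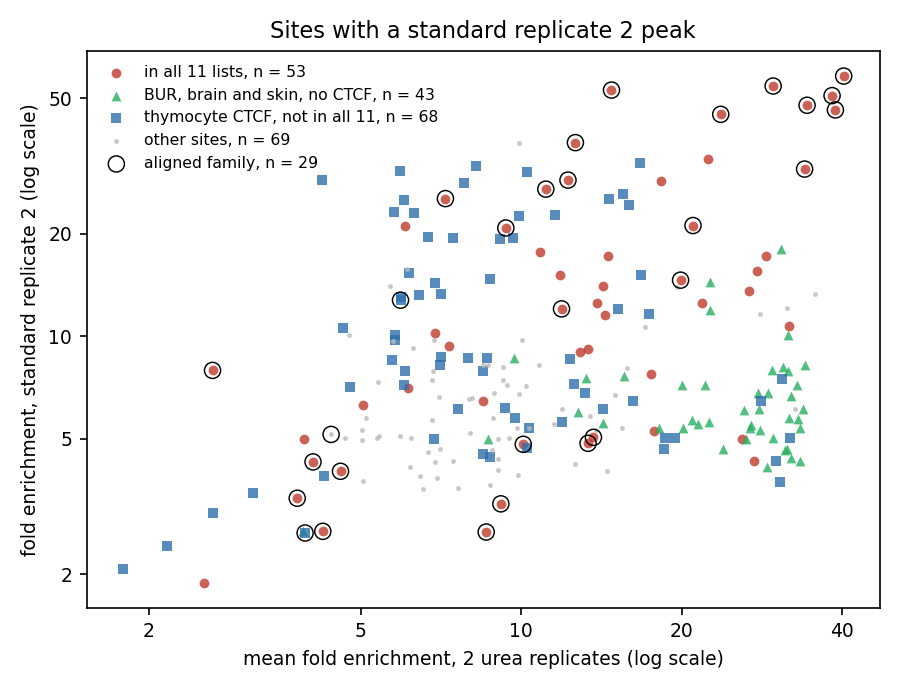
Fold enrichment in standard replicate 2 (vertical axis) against the mean fold enrichment of the 2 urea replicates (horizontal axis), both on log scales, for the 233 sites with a standard replicate 2 peak. Sites in all 11 lists reach the upper right corner, those with BUR, brain and skin peaks lie at high urea and low standard values, and circles mark the 29 sites of the family joined by alignment.

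Strong urea peaks coincided with standard peaks more often than weaker ones. When the shared urea peaks were ranked by their mean urea fold enrichment and cut into 10 equal bins, 2.46% of the top bin (19.2 to 40.3-fold) were sites, whereas in the other 9 bins the share lay between 0.668% and 1.06%. Of the 329 strongest peaks, 1 in 100 of all, 32 (9.73%) were sites. These are the values that made the calls, so they only describe the choice.

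Among the sites, the most enriched was the same in all 11 lists. This site, at chrX:139917383-139917841, intergenic and 35293 bp from the nearest start, that of the kinase gene Pak3, had fold enrichments of 40.5 and 40.1 in urea replicates 1 and 2 and 59.9 and 58.1 in standard replicates 1 and 2. It was also at 30.6 in the BUR map, 31.2 and 32.2 in brain, 42.5 and 41.9 in skin, 56.1 in thymocyte CTCF and 45.3 in skin CTCF. Each of these was the highest value among the sites in its list. The sites at chr12:3109803-3110286 (39.0 and 38.8 in the urea lists, 49.5 and 46.2 in the standard lists) and in an intron of Chl1, a neural adhesion gene, at chr6:103598956-103599437 (38.2 and 38.4, 52.5 and 50.9) followed. Those in an intron of the centrosome gene Cdk5rap2 at chr4:70038969-70039472 (35.0 and 33.8, 50.1 and 47.7) and at chr9:35112650-35113275 (34.2 and 33.9, 30.7 and 31.0) were next among the sites in all 11 lists. All 5 belong to a family of aligned sequences described below. The sites at chr9:24346334-24346777 (urea 29.6 and 29.8, standard 50.2 and 54.3) and in an intron of 2210408I21Rik at chr13:77577978-77578467 (16.0 and 13.5, 54.8 and 52.8) followed the Pak3 site in standard replicate 2. The 8 sites of highest fold enrichment in standard replicate 2 were all in all 11 lists, and all 8 were in that family.

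Other strong urea sites had lower values in the standard lists than these. The site at chr6:122647353-122647950, 9557 bp from the start of the pluripotency gene Nanog, had urea values of 35.9 and 35.2, skin values of 35.1 and 35.4 and a standard replicate 2 value of 13.3, with no standard replicate 1 peak. Its central 50 bases, an array of 6-base units, occurred 30 times in the genome. The Nkain2 site (chr10:31836532-31837110) had urea values of 34.2 and 33.9 and a standard replicate 2 value of 8.25. A site on chromosome 18, in an intron of the phosphatase subunit gene Ppp2r2b, had urea values of 33.6 and 34.1 and standard values of 5.03 and 6.10. The first 2 lack a peak in standard replicate 1, and the third has both.

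In all, 29 sites formed a family joined by alignments of at least 100 bp between sites, to which the Gm10106 site belongs. At 8 of them the 600 bases around the summit matched themselves in at least 70% of positions when shifted by 233 or 234 bases, the length of a unit of the major satellite repeat of mouse pericentromeres. The other 21, the 5 strong sites named above included, did not reach that share at those shifts and belong by alignment alone. A shift with at least 70% of matching positions was found at 14 sites in all (3.97%), against 0.0246% of the other shared urea peaks and 0.254% of the standard peaks without a urea peak. Of the 29, 26 were in all 11 lists, so the family made up 26 of the 53 such sites. On chromosome 9 below 3.1 Mb 11 sites lay side by side. Fold enrichment over the 29 ranged from 2.63 to 40.1 in urea replicate 2 and from 2.64 to 58.1 in standard replicate 2. Without the family there were 324 sites, of which 37.7% had a thymocyte CTCF peak and 67.6% a BUR. The part of repeated sequence in the peak calls was not tested.

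Repeated sequence was also present outside the family. By alignment 97 sites in 14 families had a relative among the sites. The largest family had 41 sites with a median AT content of 63.1%, of which the Nanog site is 1. The 50 bases at the summit occurred more than once in the genome at 15 sites (4.25%), against 0.537% of the other shared urea peaks and 2.96% of the standard peaks without a urea peak. The highest count was 35 copies, at a site of the aligned family 255 bp from a start of Litaf, a lysosomal and stress-response gene. At 2 sites, in an intron of the myosin gene Myo3a (chr2:22443201-22443478) and on chromosome 18, the sequence resembled the mitochondrial genome. At the Myo3a site the identity was 98.6% over 278 bp, with fold enrichments of 8.35 and 6.87 in the urea lists and 3.92 and 3.57 in the standard lists.

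In base composition the sites lay between the other sets. Their median AT content was 61.1% ± 1.65 (SD over the 4 pairings; range 25.2 to 79.8%), against 68.2% for the other shared urea peaks and 46.1% for the standard peaks without a urea peak. All BURs had a median of 70.7%. AT content under 50% was seen at 50 sites (14.2%), against 0.255% of the other urea peaks and 64.4% of the standard peaks. The 247 sites with a BUR had a median of 63.6% and the 106 without one 56.3%. The longest stretch without C or without G in the 300 bases around the summit had a median of 32 bases at the sites, 34 at the other urea peaks, 21 at the standard peaks and 40 at all BURs. The ratio of observed to chance-level CpG in the same window had a median of 0.236, against 0.136 and 0.428.

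**Figure D4:**
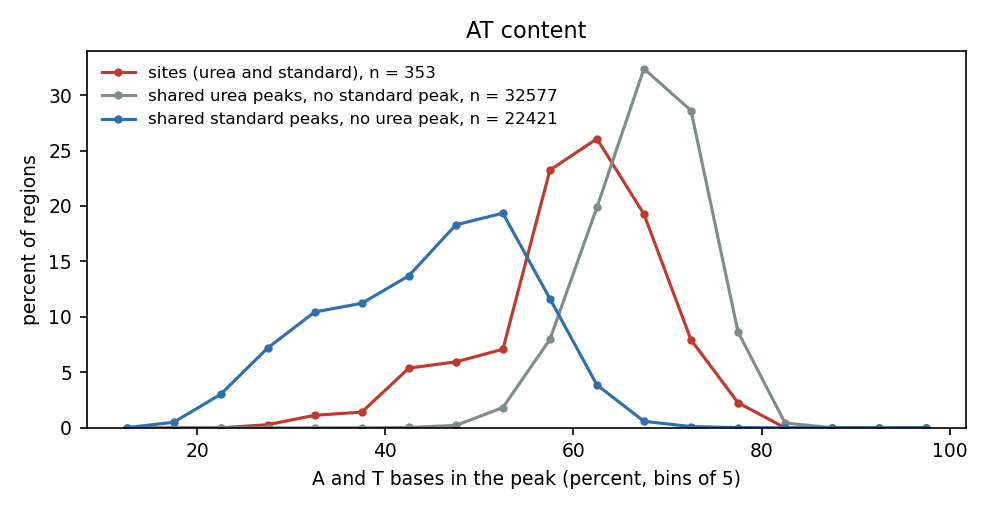
Percent of regions (vertical axis) by AT content of the peak in bins of 5 percentage points (horizontal axis) for the same 3 sets. The curve of the sites has its top at 60 to 65% (26.1% of sites), that of the other urea peaks at 65 to 70% (32.4%) and that of the standard peaks at 50 to 55% (19.4%), and the sites have a shoulder between 40 and 55%.

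The motif ATTAAT, seen in capitals in the windows above, was counted with overlaps in the 300 bases around each summit. At least 1 copy was present at 184 sites (52.1%), at 69.9% of the other shared urea peaks, at 3.03% of the standard peaks without a urea peak and at 45.7% of all BURs. At least 3 copies were present at 68 sites (19.3%), against 16.5%, 0.0268% and 4.63%. By class, 34 of the 70 sites with BUR, brain and skin peaks (48.6%) held at least 3 copies, but 3 of the 53 sites in all 11 lists (5.66%) and 9 of the 97 other sites with thymocyte CTCF (9.28%) did.

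Over all sites, the urea summits sat close to the BUR summits and farther from the standard summits. This did not hold for standard replicate 2 in the sites in all 11 lists. The median distance from the urea replicate 2 summit was 30 bp to the BUR summit, 77 bp to that of standard replicate 2 and 180.5 bp to that of standard replicate 1. It was within 50 bp at 151 of 247 sites for the BUR, 88 of 233 for standard replicate 2 and 61 of 284 for standard replicate 1. In the 53 sites in all 11 lists the median distance was 59 bp to the BUR summit. To the standard summits it was 55 bp (replicate 2) and 78 bp (replicate 1). In the 41 sites with only BUR and brain peaks it was 40 bp to the BUR summit. To the standard summits it was 144.5 bp (replicate 2, 28 sites) and 259 bp (replicate 1, 20 sites). The standard peak covered a median of 58.9% (replicate 2) and 44.8% (replicate 1) of the urea peak.

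**Figure D5:**
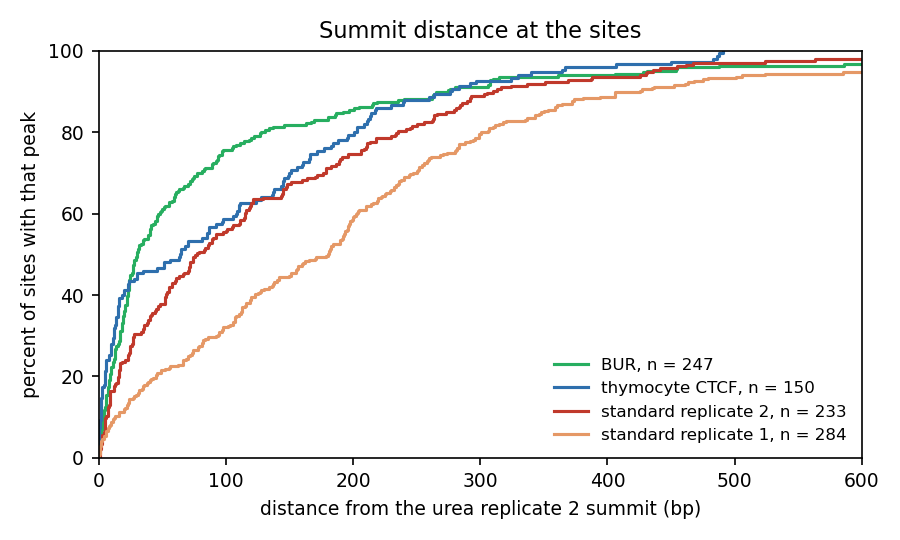
Cumulative percent of sites (vertical axis) by distance in bp from the urea replicate 2 summit (horizontal axis, cut at 600 bp) to the summit of the BUR, thymocyte CTCF and standard peaks. The BUR curve rises fastest and that of standard replicate 1 slowest, with medians of 30 and 180.5 bp.

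The threshold of 1 bp was close for some. The sites with the shortest overlap with a standard peak shared 2 bp (near Kctd1 on chromosome 18), 3 bp (chr19:11429771-11430170, near Ms4a7) and 3 bp (chr4:127075441-127075827, near Gjb5), with mean urea fold enrichments of 9.37, 11.9 and 9.40. Just outside it, the peaks at chr15:63110646-63111190 and chr2:140460350-140460697 had a gap of 0 bp and that at chr8:129084423-129084947 a gap of 1 bp, with 6.72, 6.15 and 9.98. Those 3 had AT contents of 69.9%, 70.4% and 70.1%, and the 3 just inside 61.5%, 68.5% and 58.7%. In all, 420 of the 32577 other shared urea peaks (1.29%) lay less than 500 bp from a standard peak.

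Of the 353 sites, 164 had a peak in both, 120 in standard replicate 1 only and 69 in standard replicate 2 only. The median AT content was 60.7%, 59.3% and 67.1%, a BUR was present at 72.6%, 57.5% and 85.5%, and a thymocyte CTCF peak at 69.5%, 24.2% and 10.1%. Antibody, sonication time and the ages in the titles all differ between the standard replicates and cannot be told apart here. Median fold enrichment at the sites was 6.69 in standard replicate 1 and 7.07 in standard replicate 2, against 6.35 and 6.12 over those whole lists, and 10.2 and 9.88 in urea replicates 1 and 2, against 7.62 and 7.80.

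Sites were nearer to genes than other urea peaks, though most were not at promoters. Within 1 kb of a protein-coding transcript start lay 51 sites, or 14.4% ± 1.42 (SD over the 4 pairings), against 1.42% of all shared urea peaks, 1.28% of those without a standard peak and 41.9% of the standard peaks without a urea peak. The median distance to the nearest start was 27.4 kb, against 107.8 kb and 4.87 kb, and 78 sites (22.1%) were over 100 kb away. An exon of a protein-coding gene was overlapped by 33 sites (9.35%), against 3.19% and 37.3%, an intron without an exon by 112 (31.7%), and 208 (58.9%) were intergenic. Of the 51 sites near a start, 25 had a BUR, 23 a thymocyte CTCF peak and 43 a brain replicate 1 peak, and 13 were in all 11 lists. The 24 sites with brain peaks only held 9 of the 51, and the 41 with BUR and brain peaks 1.

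The 10 most enriched sites near a start and not in all 11 lists showed these kinds side by side. A strong urea peak with weak standard peaks lay near Cass4, a scaffold protein of cell adhesion (urea 32.4 and 31.6, standard 5.84 and 6.66). Another lay 393 bp from the start of Nusap1, a spindle protein, in an exon of the adjoining Oip5 (28.9 and 28.9, standard replicate 2 4.13). Both had skin peaks, with values of 29.8 and 29.4 near Cass4 and 22.2 and 22.6 near Nusap1. At Tbrg1, a growth regulator, the urea values were 23.9 and 25.6 with a standard replicate 1 value of 4.31 and no BUR. At Acox3, a peroxisomal oxidase, the urea replicates differed, with 13.4 and 28.4, and at Mgat4a, an enzyme of N-glycan branching, they were 15.3 and 24.9. At both, replicate 2 was the higher.

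The other 5 lacked skin peaks. At Nr6a1, an orphan nuclear receptor gene, the site overlapped an exon, with urea values of 15.5 and 18.7, standard values of 6.13 and 10.6 and brain peaks but no BUR. The sites at 6720456H20Rik, Ddo (D-aspartate oxidase) and Sufu (an inhibitor of Hedgehog signalling) had thymocyte CTCF values of 15.1, 11.3 and 9.16, with mean urea values of 15.2, 13.7 and 11.9. The site 20 bp from the start of Cep164, a centriole protein, had skin CTCF (5.89) without thymocyte CTCF. Among weaker sites near a start, named here after their values were seen because of their genes, were a pair at the lymphocyte receptor gene Cd84 (urea 10.3 and 8.46 at the first, 9.70 and 8.71 at the second), the T cell surface gene Thy1 (7.11 and 7.80), the ETS factor gene Erg (9.15 and 8.58) and the NF-kB subunit gene Nfkb1 (7.37 and 5.98). All of these had a standard replicate 1 value between 3.31 and 6.20, and of them Nfkb1 alone had a standard replicate 2 peak (4.56). The Cd84 pair overlapped the same standard replicate 1 peak, which covered 54.0% of the first site and 10.9% of the second.

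In the fixed gene lists 2 genes had a site. A gene was counted when a site lay in it or within 50 kb of its start. Of 36 thymocyte genes 35 were annotated as protein-coding and 1 had a site (2.86%), of 12 chromatin organisers 1 (8.33%), and of 9 housekeeping genes 0, against 459 of all 22208 protein-coding genes (2.07%). The thymocyte gene was Runx1, a transcription factor of T cell and blood development, with an intergenic site 30104 bp from a start at chr16:92856415-92856682. Its urea values were 10.0 and 5.98, its standard replicate 2 value 5.18, its BUR value 18.3 and its brain values 23.9 and 23.3, each on the scale of its own list. The chromatin gene was Stag2, a cohesin subunit, with an intronic site at chrX:39625844-39626085 (urea 6.03 and 5.46, standard replicate 2 9.69, BUR 3.98). Rag1, Rag2, Cd4, Cd8a, Bcl11b and Satb1 had none.

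The sites with the strongest thymocyte CTCF signal outside the set in all 11 lists differed in their standard values. At chr1:197067781-197068144 the CTCF value was 39.0, with urea values of 9.65 and 6.76 and standard values of 37.5 and 31.7, and at chr19:61275427-61275898 these were 37.1, 17.2 and 16.1, and 35.0 and 32.4. The sites at chr3:5860462-5860953 (CTCF 28.4, standard 30.6 and 26.2) and in an intron of Kctd16 on chromosome 18 (24.6, 29.9 and 28.7) were like them. Lower standard values were seen at the sites at chr10:121200281-121200528, near BC048403, chr14:46432485-46432732, near Ddhd1, and chr17:3379810-3380053, in an intron of Tiam2, which had CTCF values of 36.0, 35.3 and 30.7 and urea replicate 1 values of 29.0, 28.5 and 20.2, but standard replicate 2 values of 4.31, 6.46 and 5.02. All 3 had brain values between 22.2 and 27.7. A BUR was absent from these 3, from the Gdf15 site and from each of the first 4 except the Kctd16 site. In the Gdf15 exon site (chr8:73153143-73153562) the CTCF value was 31.6, the urea values 8.64 and 12.2 and the standard replicate 1 value 13.2.

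The sites with a BUR and no skin or CTCF peak were led by the Gm15319 site (chr8:19883857-19884196; urea 24.7 and 23.4, standard replicate 1 4.17, BUR 6.46). Others were near Gm9847 (16.9 and 14.0), in an intron of B3galt5, a glycosyltransferase gene (16.2 and 13.5), and near the Fc receptor gene Fcgr4 (13.8 and 13.9). Those near the natural killer receptor gene Klra6, Bmper and Ms4a7 followed, with mean urea values between 11.9 and 12.6. The standard values of these named sites ranged from 4.17 to 9.08, and of them only the Fcgr4 site had a peak in both standard lists. Their brain values ran from 6.55 to 21.8.

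The 7 sites without a peak in any other list had low to middling values. Their urea values ran from 4.32 to 9.40 in replicate 1 and from 4.94 to 6.50 in replicate 2, and their standard values from 3.48 to 6.90, each in 1 standard list only. They lay in an exon of BC005537, within 1 kb of starts of Cecr2, a chromatin remodelling gene, and Edaradd, an adaptor of ectodysplasin signalling, in an intron of the kinase gene Nlk, and, among others, in intergenic sequence nearest to Map3k1 and Heca. Of the 7, 3 were within 1 kb of a start, and their median length was 259 bp.

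Across chromosomes the sites made up between 0.449% (X, 8 of 1781) and 2.08% (9, 29 of 1395) of the shared urea peaks. Chromosomes 11 (24 of 1203, 2.00%) and 17 (20 of 1064, 1.88%) came next. On chromosome 9, 11 of the 29 were those below 3.1 Mb.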

How the data were processed

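Peak lists of 11 wild-type samples were used. According to the labels and the study's methods, the authors aligned reads with Bowtie2 2.3.1 to mm9, keeping unique matches with up to 3 mismatches in the seed, and called peaks per sample with MACS2 2.2.7 at a q threshold of 0.01. Whether an input was given to the caller is not given in the sources used here. The deposited columns are a display score, the fold enrichment (a ratio), −log10 p and −log10 q values, and the offset of the summit; fold and q were used. Satb1-/- samples, inputs and a further wild-type thymocyte urea CTCF sample were not used here.

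Regions were overlapped with numpy 2.4.6 and pandas 2.3.3, sequences read with pysam 0.24.0 from NCBIM37, genes taken from GENCODE vM1, and sites aligned to each other with BLAST 2.17.0 (expectation at most 1e-10, at least 100 bp). The expectation is a setting of the alignment, not a test of the sites. The functions were tested on simulated data. Each site takes the overlapping peak that shares most bases, and the share of AT is over the whole peak. Soft-masked repeats were not used, since the genome sequence is not masked.

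The members, gene lists and comparisons were chosen with earlier results of these data known, and no chance test was made. Named sites were the most enriched 8 by mean urea fold, by standard replicate 2, by thymocyte CTCF (not in all 11 lists), and with a BUR but no skin or CTCF peak; the most enriched 10 near a start (not in all 11 lists); those with no other list; those at listed genes; and the 3 nearest the threshold on either side. Other sites (Cd84, Thy1, Erg, Nfkb1, Llph, Thpo, Heyl, Litaf and Myo3a) were named after their values were seen. Of these, 2 sites are not reported here by name. The titles of the urea replicates share a code, whereas the study calls its replicate experiments independent. Whether they share a preparation is not given in the labels, so their agreement may be technical. The replicate error of a share is the SD over 4 pairings of a urea and a standard list, which share libraries. For the BUR share most of this spread lay between the standard lists. It was 66.2% and 67.0% with standard replicate 1 and 76.4% and 76.5% with standard replicate 2. These lists differ in antibody and sonication, so the SD is not replicate error alone. Alternatives to the q threshold, the overlap, the lists required, the start window, the AT window and the repeat family were tried.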

Additional observations from a re-analysis of the deposited data

How the results depend on the processing

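Of the 64 values recomputed, 41 stayed within 1 SD over the pairings (counts within 1.5 times) and 23 moved. The number of sites fell to 170 with an overlap of at least 50% of the urea peak, to 207 with the urea summit inside the other peaks, and to 164 with both standard lists required. Without 1 list it ranged from 233 (without standard replicate 1) to 424 (without urea replicate 1). The share with thymocyte CTCF was 52.4% with the overlap of at least 50%, 47.8% with the summit, 69.5% with both standard lists, 32.3% without the sites in all 11 lists, 37.7% without the aligned family of 29 (chosen after seeing the data), and 40.1% to 51.9% without 1 list. The share within 1 kb of a start was 18.2% with the overlap of at least 50%, 17.1% with both standard lists, 12.7% without the sites in all 11 lists, 12.0% without the aligned family, 18.7% for starts of all annotated genes, 20.7% for 5 kb, and 12.7% to 16.2% without 1 list. The share with a BUR ran from 66.2% to 76.4% and the median AT content from 59.7% to 62.9% without 1 list. The median number of other lists was 6 with both standard lists and 5 otherwise. The cause of each move was not tested. With no counts in the lists, depth limits are unknown, and a missing peak may be one below the threshold. No paired analysis was possible because the results come from no test.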
